A study of Mus musculus with 15 samples.

Results

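Gene expression in group 3 innate lymphoid cells (ILC3) was compared between the dark and the light phase of the day. ILC3 are lymphocytes without rearranged antigen receptors that live in the gut wall. The comparison takes 8 of the 15 libraries of the study: 4 from the dark phase, at zeitgeber times 16 and 23 (ZT16 and ZT23), against 4 from the light phase, at ZT4 and ZT10. Zeitgeber time is the hour of the animals' imposed day, and ZT4 and ZT10 are called light, and ZT16 and ZT23 dark, by the usual schedule, since the labels state the times and not the lighting. All groups came from the small intestine of female mice, with no treatment or mutation named. At each time the cells of 6 mice were pooled, stained and sorted by flow cytometry, and 2 libraries were sequenced. The labels do not say whether both libraries of a time came from separate pools, so p-values measure the spread between these libraries, which may be technical in part. The other 7 libraries, from ILC2 of the same organ, serve only for the levels of ILC3 markers and for the question whether a difference is particular to ILC3.

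ILC3 respond to IL-23 with the cytokines IL-22 and IL-17, which act on the gut epithelium. The circadian clock is a loop in which CLOCK and ARNTL activate genes that carry E-box sites, among them their own inhibitors of the PER and CRY families. A second arm holds NR1D1 and NR1D2, repressors that compete with ROR receptors for the same DNA sites and so set the level of Arntl, and another arm joins the activators DBP, TEF and HLF with the repressor NFIL3 at D-box sites.

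The promoters of 5 genes are printed first. Nr1d1, Cry2 and Wsb1 were fitted lower in the dark, and Cry1 is the relative of Cry2 with a fitted difference of the opposite sign. Per3 is a clock gene whose fitted sign depended on single times. All 5 hold a match, so they do not stand for the named genes as a whole. Each run is the stretch before the gene's first listed start that lies outside its annotated span, read 5′ to 3′ on the minus strand, from the RefSeq promoter table of GRCm38.p6. Capitals mark matches on either strand to the E-box CACGTG, the related element CACGTT, the D-box forms TTATGTAA or TTACGTAA, or the ROR element TAGGTCA.
Nr1d1 (chr11:98775378-98775627): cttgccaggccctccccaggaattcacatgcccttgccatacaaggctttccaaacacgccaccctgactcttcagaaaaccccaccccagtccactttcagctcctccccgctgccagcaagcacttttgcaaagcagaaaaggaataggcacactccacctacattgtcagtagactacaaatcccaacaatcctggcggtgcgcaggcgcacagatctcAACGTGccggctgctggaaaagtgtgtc
Cry1 (chr10:85185055-85185304): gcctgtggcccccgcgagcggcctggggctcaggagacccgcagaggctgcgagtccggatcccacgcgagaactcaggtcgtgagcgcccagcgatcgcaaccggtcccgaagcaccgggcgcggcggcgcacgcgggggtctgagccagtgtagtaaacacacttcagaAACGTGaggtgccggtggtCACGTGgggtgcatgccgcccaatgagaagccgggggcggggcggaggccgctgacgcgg
Cry2 (chr2:92434086-92434319): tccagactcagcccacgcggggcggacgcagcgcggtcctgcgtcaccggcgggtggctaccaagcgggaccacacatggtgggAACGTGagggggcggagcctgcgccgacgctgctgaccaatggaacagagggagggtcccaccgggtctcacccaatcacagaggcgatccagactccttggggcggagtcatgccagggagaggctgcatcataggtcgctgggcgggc
Per3 (chr4:151044708-151044915): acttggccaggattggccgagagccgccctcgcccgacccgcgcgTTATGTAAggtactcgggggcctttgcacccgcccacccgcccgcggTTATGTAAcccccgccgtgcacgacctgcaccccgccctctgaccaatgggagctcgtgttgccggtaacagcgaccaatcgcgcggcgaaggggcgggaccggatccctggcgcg
Wsb1 (chr11:79254710-79254945): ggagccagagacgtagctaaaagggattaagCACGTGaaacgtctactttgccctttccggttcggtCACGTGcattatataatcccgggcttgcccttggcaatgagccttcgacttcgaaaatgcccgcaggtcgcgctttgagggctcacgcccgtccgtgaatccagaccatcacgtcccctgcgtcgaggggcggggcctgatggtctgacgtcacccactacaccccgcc
The matches did not overlap each other. Nr1d1 held CACGTT 28 bases before its start, Cry1 held CACGTT at 79 and CACGTG at 60, and Cry2 held CACGTT at 166. Per3 held TTATGTAA at 205 and 158, and Wsb1 held CACGTG at 219 and 183. Over the 27025 promoters of the table, each 250 bases before and 50 bases after a start, CACGTG was found in 7.241%, CACGTT in 4.773%, TTATGTAA in 0.955%, TTACGTAA in 0.107% and TAGGTCA in 2.638%, counting either strand. Of the 22 clock genes tested, 18 had an entry, and CACGTG was in 5 of them, CACGTT in 3, TTATGTAA in 1 and TAGGTCA in 1. Among the 5 clock genes lower in the dark at an unadjusted edgeR p under 0.05, CACGTG was in 0, CACGTT in 2 and TAGGTCA in 1. Of the 12 genes chosen below as lower in every dark library, 8 had an entry, with CACGTG in 2 and CACGTT in 2. Of the 12 named as higher, 10 had an entry, with CACGTG in 0 and CACGTT in 1. A match is a description of the letters and not a bound site.

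The ILC3 libraries held between 5903163 and 24794403 counts, and all but 1 held at least 15222181. The libraries ZT4 replicate 1, which was the shallowest, and ZT23 replicate 2 stood apart at opposite ends of the first principal component, which held 58.9% of the variance. ZT23 replicate 2 had the highest summed levels of the epithelial list (15444 CPM, counts scaled to a library total of 1e+06), the erythroid list (1555 CPM) and the B and plasma cell list (5203 CPM). ZT4 replicate 1 had the highest sum of the macrophage and dendritic cell list (5386 CPM). Its sums of the T cell list (1616 CPM) and the cytotoxic and type 1 lymphocyte list (2147 CPM) were the lowest. ZT4 replicate 2 had 5397 CPM of the epithelial list, whereas ZT4 replicate 1 had 454 CPM and the other 5 libraries 1012 to 1684 CPM. Results are therefore also given for the 6 libraries without ZT4 replicate 1 and ZT23 replicate 2, a choice made after seeing the data. In bulk libraries, fewer cells of a type and less RNA per cell cannot be told apart.

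**Figure D1:**
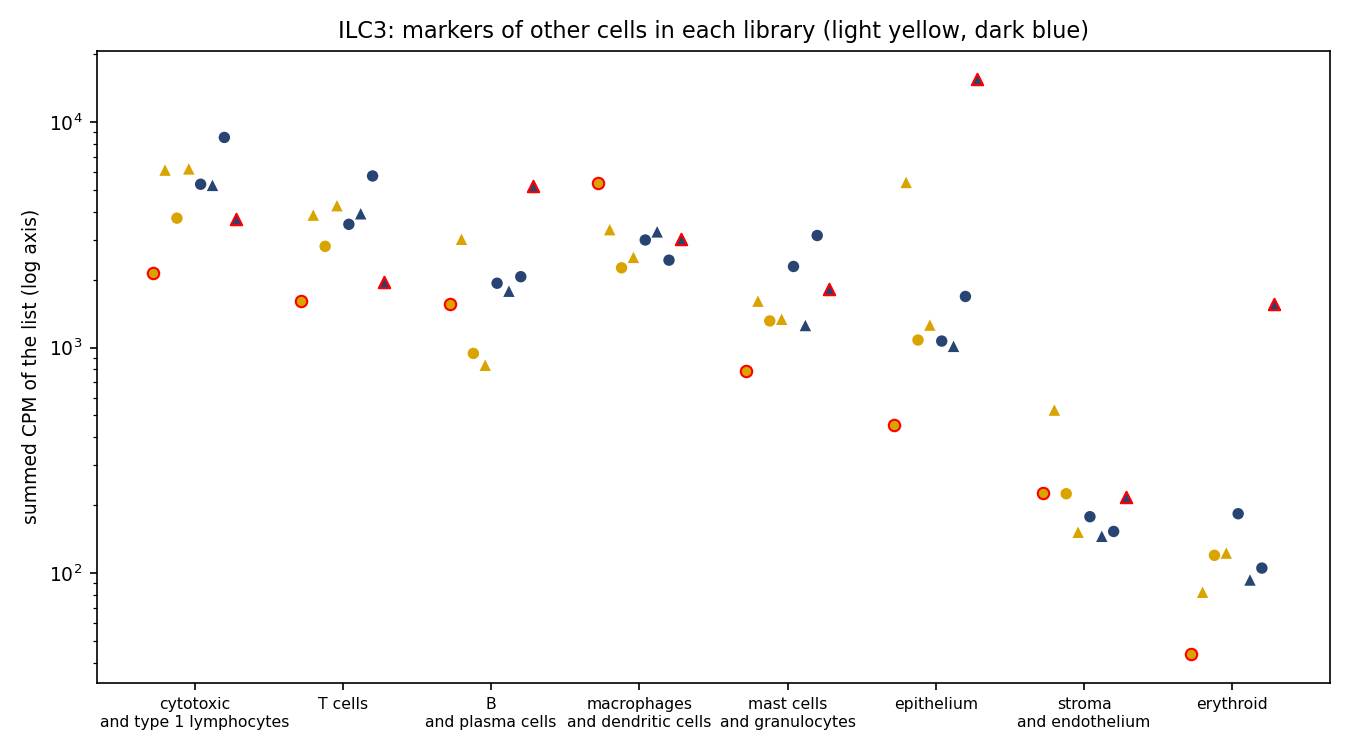
Summed CPM of 8 marker lists of other cells (log axis) in each ILC3 library, with light libraries in yellow, dark libraries in blue, replicate 1 as circles, replicate 2 as triangles and a red rim for ZT4 replicate 1 and ZT23 replicate 2. The epithelial sum ran from 454 to 15444 CPM, with ZT23 replicate 2 highest.

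Genes used to check for ILC3 were present in every library. Il7r, the receptor chain for IL-7, was at 759 and 411 CPM (ZT4), 945 and 663 CPM (ZT10), 687 and 390.5 CPM (ZT16) and 494 and 358 CPM (ZT23). Its levels overlapped between the phases, with a fitted log2 fold change (dark minus light) of -0.53 ± 0.29 (SE). Il23r, a chain of the IL-23 receptor, averaged 127 ± 45.7 CPM (SD, n = 4) in the light and 89.01 ± 20.2 CPM in the dark. Kit, a receptor of lymphoid precursors and ILC3, and Id2, a regulator that all ILC need, differed by -0.20 ± 0.26 and 0.041 ± 0.20, and both signs depended on which libraries were used. In the light libraries of ILC2, scaled on their own, Il7r averaged 533 CPM, Id2 451 CPM, Kit 134 CPM and Il23r 3.84 CPM. Il7r and Id2 therefore do not set ILC3 apart from ILC2. None of the 24 cytotoxic and type 1 lymphocyte genes, 22 T cell genes, 17 B and plasma cell genes, 20 macrophage and dendritic cell genes, 15 mast cell and granulocyte genes, 28 epithelial genes, 16 stromal genes and 6 erythroid genes was at 0 in every ILC3 library. The summed levels of these lists overlapped between the phases, with 93.1 to 1555 CPM in the dark and 43.7 to 123 CPM in the light for the erythroid list, and 1777 to 5203 CPM against 834 to 3019 CPM for the B and plasma cell list. In an exact permutation test of these sums the smallest unadjusted p was 0.114, for the mast cell and granulocyte list. Every adjusted p was 0.566 or higher, with the class II, respiratory chain and ribosomal protein lists included in the adjustment. The test could decide little, since its smallest possible p for 4 against 4 libraries is 0.0286. No list can pass the adjustment over this many lists unless most of them are fully apart.

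No gene passed an adjusted p of 0.05 in edgeR's quasi-likelihood test of 4 dark against 4 light libraries, over 13381 genes tested (0%; smallest adjusted p = 0.793). At an unadjusted p under 0.05, 484 genes (3.62%) were lower and 273 genes (2.04%) were higher in the dark. In the 6 libraries 373 genes were lower and 286 higher at that level, of 13490 tested. These numbers stand beside all list counts given below for the 6 libraries. All 4 dark libraries lay below all 4 light libraries for 275 genes (2.06%) and above them for 231 genes (1.73%). Of the 13381 genes, 6117 were fitted lower and 7264 higher in the dark, and in the 6 libraries 6833 and 6657 of 13490. Every list count of genes fitted lower or higher given below stands beside these. limma called 0 genes, and DESeq2 called 25, of which 23 were lower and 2 higher in the dark, while it gave no adjusted p for 7059 genes. Its calls included Nr1d1, Nr1d2, Zswim4, Zfp703, Hexim1, Rbm3, Usp36, Wsb1, Mepce, Ubald1, Mnt, Nr4a3 and Taf4b among the lower genes, and Taf15 and Zranb2 were the higher ones. Nr1d1 had the smallest unadjusted p of all genes in edgeR. The genes below are therefore described by their levels. None of them was called by edgeR, and every adjusted p was 0.793 or higher. Fold changes are log2, dark minus light, from the edgeR fit, with ± for the SE.

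**Figure D2:**
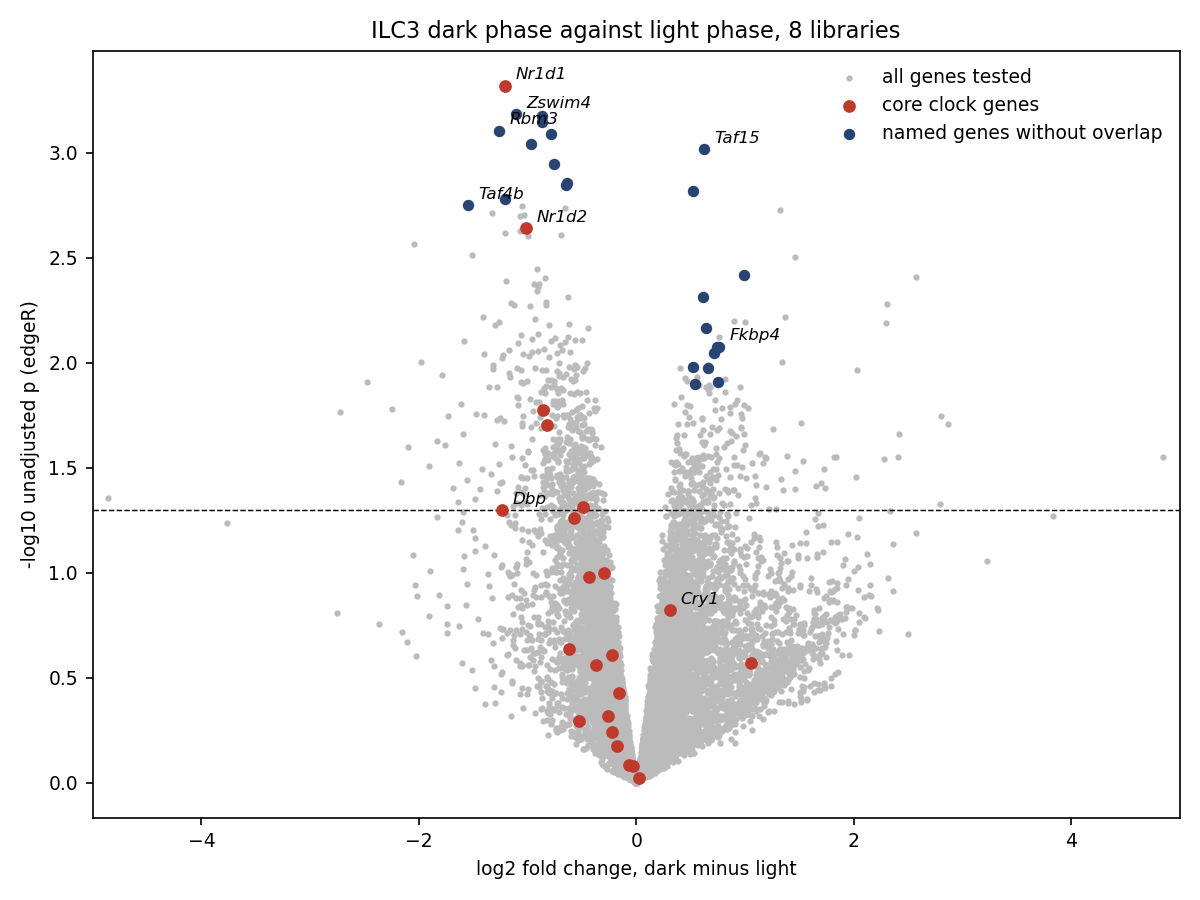
Log2 fold change, dark minus light, against the unadjusted edgeR p on a -log10 axis for the genes tested in ILC3, with core clock genes in red, named genes without overlap in blue and a dashed line at 0.05; 3 genes lie beyond the axis limit of 5. Nr1d1 sits highest, and the red points lie mostly left of 0.

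Among the genes of the clock, the repressor genes Nr1d1 and Nr1d2 were lower in every dark library than in every light library. Of 22 core clock genes tested, 5 were lower at an unadjusted p under 0.05 (Nr1d1, Nr1d2, Rora, Cry2 and Nfil3) and 0 were higher, beside 3.62% and 2.04% of all genes. Their median log2 fold change was -0.33, beside 0.036 over all genes. Of the 22, 19 were fitted lower, beside 6117 of the 13381 genes tested. In the 6 libraries, 4 were lower at that level, beside 373 of all 13490 genes tested there. Dbp stood in place of Rora and Nfil3, the median was -0.24, and 16 were fitted lower and 6 higher. For 2 of the 22 every dark library lay below every light library, and for 0 above, beside 2.06% and 1.73% of all genes. Of the list, 9 had a negative value for all 4 differences between a dark and a light time, beside 17.8% of all genes. Without both ZT10 libraries, ZT10 replicate 1 or both ZT23 libraries 2 were lower at that level, without ZT16 replicate 2 there were 3, and without ZT4 replicate 2, ZT16 replicate 1 or both ZT16 libraries there were 8.

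Nr1d1 (chr11:98767932-98775377) encodes the heme receptor and repressor also called REV-ERBα. Its level was 219.9 and 176 CPM (ZT4), 296 and 205 CPM (ZT10), 127 and 70.8 CPM (ZT16) and 108 and 83.1 CPM (ZT23). Every dark library lay below every light library, and both dark times were about as low. The means were 224 ± 50.98 CPM (SD, n = 4) in the light and 97.2 ± 25.2 CPM in the dark. The log2 fold change was -1.21 ± 0.23 (SE), and it stayed between -1.36 and -1.05 when each library was left out. The 4 differences between a dark and a light time ran from -1.38 to -1.05.

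Nr1d2 (chr14:18204056-18239106), the close relative of Nr1d1 in this arm, was at 239.6 and 143 CPM (ZT4), 245 and 162 CPM (ZT10), 137 and 87.7 CPM (ZT16) and 87.4 and 78.6 CPM (ZT23). Its groups did not overlap, although ZT16 replicate 1 was close to the lowest light library, ZT4 replicate 2. The difference was -1.01 ± 0.24 (unadjusted p under 0.05), with -0.82 in the 6 libraries. Rora, an activator at the same DNA sites and a factor needed by innate lymphoid cells, was at 243 and 127 CPM (ZT4), 263 and 148 CPM (ZT10), 153 and 74.8 CPM (ZT16) and 109 and 93.7 CPM (ZT23). Its groups overlapped, since ZT16 replicate 1 exceeded both replicate 2 libraries of the light times. Its difference was -0.86 ± 0.29 (unadjusted p under 0.05), and without ZT4 replicate 1 and ZT23 replicate 2 it was -0.67 and no longer under 0.05. Arntl, which this arm controls, was at 49.6 and 42.3 CPM (ZT4), 54.1 and 40.3 CPM (ZT10), 42.8 and 30.6 CPM (ZT16) and 38.6 and 39.9 CPM (ZT23). Its groups overlapped, and its difference was -0.29 ± 0.16.

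Genes of protein turnover in the clock had overlapping groups. Fbxl21, which encodes an F-box protein, was under 6 CPM in every library (-0.22 ± 0.38), and Btrc and the kinase gene Csnk1d, which act on PER proteins, differed by -0.063 ± 0.28 and -0.032 ± 0.15. Csnk1e, the other kinase of this kind, differed by -0.22 ± 0.18.

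Cry2 and Cry1 both encode inhibitors of CLOCK and ARNTL, and their fitted differences had opposite signs. Cry2 was at 20.4 and 15.3 CPM (ZT4), 33.3 and 32.4 CPM (ZT10), 18.6 and 11.9 CPM (ZT16) and 15.5 and 11.6 CPM (ZT23). The ZT10 libraries were the highest, and ZT4 overlapped with the dark times. The difference was -0.82 ± 0.29 (unadjusted p under 0.05). Cry1 was at 36.5 and 30.8 CPM (ZT4), 50.9 and 50.1 CPM (ZT10), 62.3 and 53.3 CPM (ZT16) and 47.9 and 45.3 CPM (ZT23). ZT16 replicate 1 was highest and ZT4 was lowest, while ZT10 lay above ZT23, so the groups overlapped and the difference was 0.31 ± 0.20, above an unadjusted p of 0.05. From ZT4 to ZT16 the mean of Cry1 differed by 0.78 on the log2 scale and from ZT10 to ZT23 by -0.12.

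**Figure D3:**
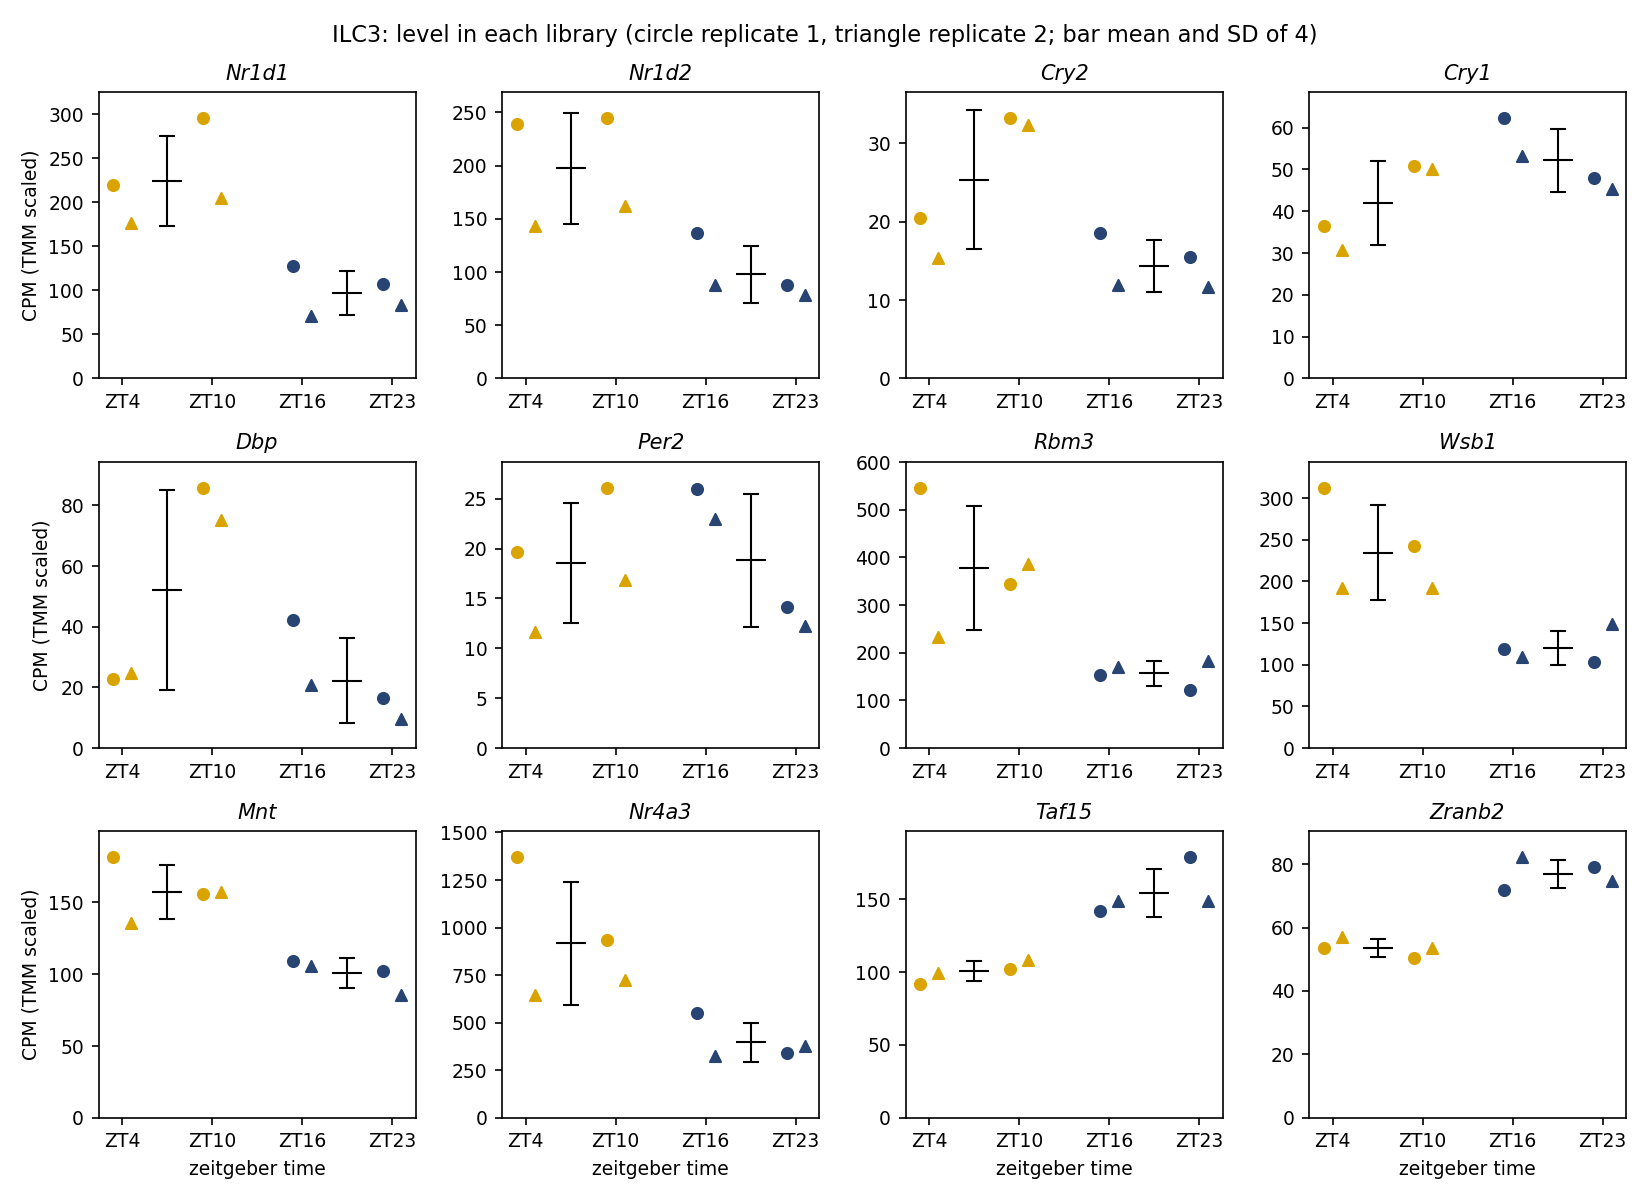
CPM of 12 genes in each of the 8 ILC3 libraries by zeitgeber time, with light times in yellow, dark times in blue, circles for replicate 1, triangles for replicate 2, and a bar for the mean and SD of the 4 libraries of a phase; every axis starts at 0. Nr1d1, Nr1d2, Rbm3, Wsb1, Mnt, Nr4a3, Taf15 and Zranb2 are apart between the phases, whereas Cry2, Cry1, Dbp and Per2 overlap.

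The D-box genes differed between the times of 1 phase, which a contrast of phases averages. Dbp, a D-box activator, was at 22.9 and 24.7 CPM (ZT4), 85.8 and 75.2 CPM (ZT10), 42.1 and 20.7 CPM (ZT16) and 16.7 and 9.66 CPM (ZT23). Its level at ZT10 stood above all others, and ZT4 lay among the dark libraries. The phase difference was -1.23 ± 0.55, just above an unadjusted p of 0.05, with 0.31 for ZT16 minus ZT4 and -2.65 for ZT23 minus ZT10. Tef, of the same family, was at 27.9 and 41.5 CPM (ZT4), 80.6 and 80.2 CPM (ZT10), 64.03 and 48.2 CPM (ZT16) and 49.1 and 31.8 CPM (ZT23). Hlf was at 26.9 and 22.7 CPM (ZT4), 54.7 and 51.1 CPM (ZT10), 49.9 and 20.9 CPM (ZT16) and 21.3 and 9.18 CPM (ZT23). Both were highest at ZT10 and overlapped, with differences of -0.26 ± 0.35 and -0.62 ± 0.48, and without the ZT10 libraries these became 0.48 and 0.037. Nfil3, the repressor of this arm and a factor needed to make innate lymphoid cells, was at 357 and 207 CPM (ZT4), 259.9 and 227 CPM (ZT10), 226 and 184 CPM (ZT16) and 198 and 142 CPM (ZT23). Its difference was -0.49 ± 0.21 (unadjusted p under 0.05), but -0.19 in the 6 libraries, and its groups overlapped.

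The Per genes, the inhibitors that CLOCK and ARNTL switch on, had fitted differences of -0.57 (Per1), 0.022 (Per2) and -0.52 (Per3). Per1 was at 625 and 580.0 CPM (ZT4), 982 and 733 CPM (ZT10), 644 and 487 CPM (ZT16) and 533 and 299 CPM (ZT23). ZT23 replicate 2 was lowest and ZT10 replicate 1 highest, with a difference of -0.57 ± 0.26, above an unadjusted p of 0.05. Per2 was at 19.7 and 11.6 CPM (ZT4), 26.1 and 16.8 CPM (ZT10), 25.9 and 22.9 CPM (ZT16) and 14.2 and 12.2 CPM (ZT23). Both ZT16 libraries lay above both ZT23 libraries, the light libraries spread over the same range, and the difference was 0.022 ± 0.32, with either sign among the alternatives. Per3 was at 1.91 and 7.96 CPM (ZT4), 17.6 and 10.96 CPM (ZT10), 13.6 and 9.43 CPM (ZT16) and 1.83 and 2.11 CPM (ZT23). Both ZT23 libraries were near 2 CPM, as was ZT4 replicate 1, and the difference of -0.52 ± 0.76 became 0.43 without the ZT10 libraries and 0.23 without the ZT23 libraries.

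Other clock genes had overlapping groups. Clock differed by -0.16 ± 0.17 and Npas2, its relative, by -0.37 ± 0.32. Bhlhe40, a repressor of E-box genes, averaged 2299.9 ± 581 CPM (SD, n = 4) in the light and 1704 ± 374 CPM in the dark. Bhlhe41 was under 2 CPM in every library and Ciart under 3 CPM. In the list of 24 clock output genes, 3 were lower at an unadjusted p under 0.05, beside 3.62% of all genes, and 0 were higher, beside 2.04%. These were Coq10b (-0.61 ± 0.21), Herpud1 (-0.56 ± 0.21) and Cdkn1a (-0.68 ± 0.26), which act in coenzyme Q function, breakdown of misfolded proteins and cell cycle arrest. Herpud1 was at -0.37 and above that p in the 6 libraries. The median of the list was -0.28, and -0.31 in the 6 libraries.

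Outside the clock, the genes chosen as lower in every dark library than in every light library were Zswim4, Zfp703, Hexim1, Rbm3, Usp36, Wsb1, Mepce, Ubald1, Mnt, Nr4a3 and Taf4b. With Nr1d1 they are the 12 of 134 candidates with the smallest p, so their p-values and their lack of overlap follow from the choice. Other named genes, among them Hk2, Pdk1, Klf4 and Rel, were also lower in every dark library and are given with their lists.

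Rbm3 (chrX:8138975-8145880), an RNA-binding protein that cells make when they cool, was at 546 and 232 CPM (ZT4), 343 and 387 CPM (ZT10), 152 and 170.2 CPM (ZT16) and 121 and 183 CPM (ZT23). The highest dark library was ZT23 replicate 2 and the lowest light library ZT4 replicate 2. The difference was -1.26 ± 0.26. Wsb1 (chr11:79239382-79254709), the substrate subunit of a ubiquitin ligase, was at 312 and 192 CPM (ZT4), 242 and 192 CPM (ZT10), 119 and 109 CPM (ZT16) and 103 and 149 CPM (ZT23). Its difference was -0.97 ± 0.20. ZT4 replicate 1 was highest for both, and without it and ZT23 replicate 2 the values were -1.12 for Rbm3 and -0.92 for Wsb1.

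Hexim1 (chr11:103116325-103119725), an inhibitor of the elongation kinase P-TEFb, was at 469 and 309 CPM (ZT4), 378 and 334 CPM (ZT10), 233 and 194 CPM (ZT16) and 212 and 176 CPM (ZT23). Mepce (chr5:137781906-137786701), which caps the RNA on which that inhibitor works, was at 154 and 106 CPM (ZT4), 159 and 128 CPM (ZT10), 92.1 and 72.8 CPM (ZT16) and 83.4 and 75.6 CPM (ZT23). Their differences were -0.87 ± 0.18 and -0.76 ± 0.16. Mnt (chr11:74830806-74845725), a repressor that competes with MYC for the partner MAX, was at 181 and 135 CPM (ZT4), 156 and 157 CPM (ZT10), 109 and 106 CPM (ZT16) and 103 and 85.8 CPM (ZT23). It differed by -0.64 ± 0.14, and in the 6 libraries by -0.50. For Hexim1 the dark levels ran from 176 to 233 CPM and the light levels from 309 to 469 CPM.

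Nr4a3 (chr4:48045078-48086447), an orphan nuclear receptor induced within minutes of cell stimulation, was at 1369 and 647 CPM (ZT4), 933 and 723 CPM (ZT10), 549 and 327 CPM (ZT16) and 339 and 377 CPM (ZT23). ZT4 replicate 1 was the highest library, and the difference of -1.21 ± 0.28 was -0.92 in the 6 libraries. Zswim4 (chr8:84210942-84237042) was at 161 and 102 CPM (ZT4), 137 and 77.9 CPM (ZT10), 61.5 and 53.3 CPM (ZT16) and 57.8 and 48.96 CPM (ZT23), with a difference of -1.11 ± 0.22. Zfp703 (chr8:26977336-26981462), a nuclear corepressor, was at 256 and 186 CPM (ZT4), 228 and 198 CPM (ZT10), 144 and 104 CPM (ZT16) and 101 and 127 CPM (ZT23). Its difference was -0.87 ± 0.17. The nucleolar deubiquitinase gene Usp36 differed by -0.78 ± 0.16, Ubald1 by -0.64 ± 0.14 and Taf4b, a subunit of the general factor TFIID, by -1.55 ± 0.36.

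Fewer candidates were higher in the dark. The 12 of 68 candidates that were higher in every dark library and had the smallest p were Taf15, Zranb2, Mtrf1l, Cacybp, Mettl16, Fkbp4, Idnk, Mto1, Phf23, Zkscan3, Dnaja3 and Eno1b. Taf15 (chr11:83473073-83506743), an RNA-binding protein of the FET family, was at 92.00 and 99.6 CPM (ZT4), 102 and 109 CPM (ZT10), 142 and 149 CPM (ZT16) and 179 and 149 CPM (ZT23). Its difference was 0.62 ± 0.13. Zranb2 (chr3:157534120-157548390), a splicing factor, was at 53.6 and 57.2 CPM (ZT4), 50.3 and 53.4 CPM (ZT10), 71.9 and 82.1 CPM (ZT16) and 79.00 and 74.8 CPM (ZT23), and differed by 0.52 ± 0.12. The differences in the 6 libraries were 0.60 and 0.53.

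Cacybp (chr1:160202367-160212892), a partner of ubiquitin ligases and chaperones, was at 44.5 and 67.9 CPM (ZT4), 56.5 and 73.2 CPM (ZT10), 90.3 and 91.4 CPM (ZT16) and 90.6 and 97.9 CPM (ZT23). Fkbp4 (chr6:128430103-128438656), a co-chaperone of the heat shock protein HSP90, was at 141 and 197 CPM (ZT4), 151 and 213 CPM (ZT10), 233 and 257 CPM (ZT16) and 277 and 425 CPM (ZT23). Dnaja3, a co-chaperone of mitochondria, was at 20.6 and 39.6 CPM (ZT4), 27.9 and 33.9 CPM (ZT10), 44.2 and 46.1 CPM (ZT16) and 43.8 and 72.8 CPM (ZT23). ZT23 replicate 2 was the highest dark library for all 3, and their differences of 0.61 ± 0.17, 0.76 ± 0.23 and 0.75 ± 0.24 became 0.46, 0.45 and 0.40 in the 6 libraries. Mtrf1l, a release factor of mitochondrial translation, and Mto1, which modifies mitochondrial tRNA, were low in level, at 10.5 ± 2.38 CPM and 16.8 ± 2.88 CPM (SD, n = 4) in the dark, and differed by 0.99 ± 0.26 and 0.72 ± 0.22. Mettl16, an RNA methyltransferase, differed by 0.64 ± 0.19, the gluconate kinase gene Idnk by 0.74 ± 0.22, the PHD finger gene Phf23 by 0.53 ± 0.16 and the zinc finger gene Zkscan3 by 0.66 ± 0.21. Eno1b differed by 0.54 ± 0.18, but reads of this gene and of its close copy Eno1 could be split by the counting, so its level is uncertain.

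Heat shock and cold response genes were mostly fitted higher, 13 of 18, with Rbm3 at the other end. Of the 18 tested, 1 (Rbm3) was lower and 4 were higher at an unadjusted p under 0.05, beside 3.62% and 2.04% of all genes, and the median was 0.33, or 0.30 in the 6 libraries. Hsph1, a nucleotide exchange factor of HSP70 chaperones, was at 71.01 and 164 CPM (ZT4), 132 and 141 CPM (ZT10), 249.8 and 229 CPM (ZT16) and 172 and 194 CPM (ZT23). No dark library overlapped a light one, and the difference was 0.73 ± 0.25. Hspe1 and Hspd1, the chaperonin of mitochondria, differed by 0.75 ± 0.27 and 0.60 ± 0.25, and Hspa8, a constitutive HSP70, by 0.36 ± 0.16. In the 6 libraries Hsph1, Hspe1 and Hspa8 were at 0.57, 0.48 and 0.37, whereas Hspd1 was at 0.25.

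Immediate early genes were split. Of 28 tested, 6 were lower (Nr4a3, Csrnp1, Klf4, Nr4a2, Maff and Dusp5) and 2 were higher (Klf2 and Klf6) at an unadjusted p under 0.05, beside 3.62% and 2.04% of all genes. Equal numbers, 14 each, were fitted lower and higher, with a median of -0.051. Klf4, a zinc finger factor, was at 579 and 516 CPM (ZT4), 798 and 418 CPM (ZT10), 409.9 and 379 CPM (ZT16) and 352 and 270.4 CPM (ZT23). Its groups did not overlap, with a difference of -0.71 ± 0.23. Nr4a2, the relative of Nr4a3, differed by -0.68 ± 0.26 without overlap. Klf2, a factor of lymphocyte quiescence and trafficking, averaged 98.5 ± 24.9 CPM (SD, n = 4) in the light and 149.9 ± 28.4 CPM in the dark and differed by 0.60 ± 0.22. In the 6 libraries 4 were lower and 5 higher at that level.

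NF-kB signalling genes were all fitted lower in the dark, 23 of 23, beside 6117 of the 13381 genes tested, and 7 of them at an unadjusted p under 0.05, beside 3.62% of all genes. Rela, a subunit of NF-kB, was at 440.0 and 225 CPM (ZT4), 324 and 255 CPM (ZT10), 231 and 174 CPM (ZT16) and 199 and 145 CPM (ZT23). Rel, another subunit, was at 427 and 221 CPM (ZT4), 318 and 226 CPM (ZT10), 205 and 210.5 CPM (ZT16) and 157 and 156 CPM (ZT23). ZT4 replicate 1 was highest for both, and the dark and light levels of Rel did not overlap, whereas those of Rela did. The differences were -0.73 ± 0.24 for Rela, -0.71 ± 0.24 for Rel and -0.60 ± 0.23 for the survival gene Bcl2l1, and -0.41, -0.42 and -0.29 in the 6 libraries. The median was -0.50, and with the 6 libraries it was -0.20, with 3 of 23 lower at that level and 21 fitted lower. The inhibitor gene Nfkbib, also without overlap, differed by -0.52 ± 0.21. The same library, ZT4 replicate 1, had the highest summed class II level and the fewest counts, and the part of these in the result was not tested.

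Among the ILC3 effector genes, 3 of 13 tested were lower at an unadjusted p under 0.05, beside 3.62% of all genes, and 0 were higher. With the 6 libraries 1 was lower and 1 higher at that level. Of the 13, 8 were fitted lower and 5 higher, and the median of -0.14 ran from -0.36 to 0.025 when each library was left out. Il17f, which encodes a cytokine of the IL-17 family, was at 106 and 20.01 CPM (ZT4), 43.1 and 22.2 CPM (ZT10), 10.2 and 6.77 CPM (ZT16) and 18.1 and 19.9 CPM (ZT23). ZT4 replicate 1 was highest, and the highest dark library nearly reached the lowest light library. The difference was -1.79 ± 0.57, and -1.27 in the 6 libraries. Il22, the cytokine that acts on the gut epithelium, was at 1625 and 379 CPM (ZT4), 908 and 546 CPM (ZT10), 437 and 332 CPM (ZT16) and 581 and 527 CPM (ZT23). Its groups overlapped, and its difference of -0.88 ± 0.42, above an unadjusted p of 0.05, was -0.43 in the 6 libraries. Furin, a protease that matures secreted proteins, and the growth factor gene Vegfa differed by -0.58 ± 0.22 and -0.59 ± 0.26, and neither was under an unadjusted 0.05 in the 6 libraries (-0.36 and -0.32). Ltb, a ligand with which ILC3 shape lymphoid tissue, averaged 348 ± 109 CPM (SD, n = 4) in the light and 434 ± 99.7 CPM in the dark.

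Of 25 genes of ILC3 identity, 2 were lower and 0 higher at an unadjusted p under 0.05, beside 3.62% and 2.04% of all genes, and 19 were fitted lower. In the 6 libraries 1 was lower and 1 higher at that level. Tnfsf11, which encodes the ligand RANKL, was at 1554 and 516 CPM (ZT4), 1039 and 664 CPM (ZT10), 458 and 253 CPM (ZT16) and 498 and 549.9 CPM (ZT23). ZT23 replicate 2 overlapped with ZT4 replicate 2, and the difference was -1.10 ± 0.37. Rora, described above, was the other. The median of the list was -0.26, and -0.077 in the 6 libraries. Ccr6 and Ncr1, which mark different ILC3 subsets, averaged 108 ± 33.9 CPM and 16.97 ± 7.47 CPM (SD, n = 4) in the light and 102 ± 18.8 CPM and 15.7 ± 9.50 CPM in the dark. Ahr, a receptor for dietary ligands, differed by -0.33 ± 0.26.

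In metabolism, 2 of 20 glycolysis genes were lower at an unadjusted p under 0.05, beside 3.62% of all genes, and 14 were fitted lower with a median of -0.13. Both were apart between the phases. Hk2, a hexokinase, was at 883 and 399.6 CPM (ZT4), 805 and 413 CPM (ZT10), 393 and 209 CPM (ZT16) and 267 and 259 CPM (ZT23). Pdk1, a kinase that inhibits pyruvate dehydrogenase, was at 74.8 and 62.5 CPM (ZT4), 77.9 and 71.5 CPM (ZT10), 56.99 and 49.7 CPM (ZT16) and 49.1 and 54.6 CPM (ZT23). Their differences were -1.15 ± 0.32 and -0.45 ± 0.13, and -0.89 and -0.44 in the 6 libraries. All 43 respiratory chain genes were fitted higher in the dark with a median of 0.39, beside 7264 of the 13381 genes tested, and 4 were at an unadjusted p under 0.05, beside 2.04% of all genes. In the 6 libraries the median was 0.030, 0 were at that level and 25 of 43 were fitted higher. Cox7c, a subunit of cytochrome oxidase, was at 40.8 and 38.7 CPM (ZT4), 40.2 and 55.5 CPM (ZT10), 46.8 and 53.9 CPM (ZT16) and 88.6 and 135 CPM (ZT23). The summed level of the list was 14192 CPM in ZT23 replicate 2 and between 5879 and 8021 CPM in the other 7 libraries.

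Unfolded protein response genes had 4 of 26 lower and 0 higher at an unadjusted p under 0.05, beside 3.62% and 2.04% of all genes, and 3 lower and 1 higher in the 6 libraries. Of the 26, 15 were fitted lower and 11 higher, with a median of -0.13. Ern1, a stress sensor of the endoplasmic reticulum, was at 218 and 155 CPM (ZT4), 223 and 123 CPM (ZT10), 135 and 90.6 CPM (ZT16) and 109 and 97.4 CPM (ZT23). Its groups overlapped, with a difference of -0.73 ± 0.22. Dnajb9, a chaperone gene of the same compartment, differed by -0.41 ± 0.15 without overlap. The same shares of all genes stand beside the counts of the next lists. Genes of sterol and fatty acid synthesis had 0 of 30 lower and 1 higher at that level, Fdft1 (squalene synthase; 0.52 ± 0.18, and 0.33 and above that p in the 6 libraries). Lipid uptake and storage genes had 2 of 20 lower, Dgat2 (-0.72 ± 0.27) and Cd36 (-0.82 ± 0.36), which store and take up fat, and Cd36 was at -0.60 and above that p in the 6 libraries. Of the receptor genes for neural, hormone and metabolite signals, 3 of 27 were lower, Gpr132 (-0.73 ± 0.23), Igf1r (-0.69 ± 0.30) and Gpr65 (-0.63 ± 0.27). Igf1r was at -0.56 and Gpr65 at -0.22 in the 6 libraries, both above that p, and without ZT4 replicate 1 alone Gpr65 was at -0.29. Among 28 homing genes Itga4, an integrin chain, was the 1 that was lower (-0.80 ± 0.32), and it was at -0.34 and above that p in the 6 libraries. Cell cycle genes had 1 of 31 higher, and 27 were fitted higher with a median of 0.35, against 0.028 in the 6 libraries.

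**Figure D4:**
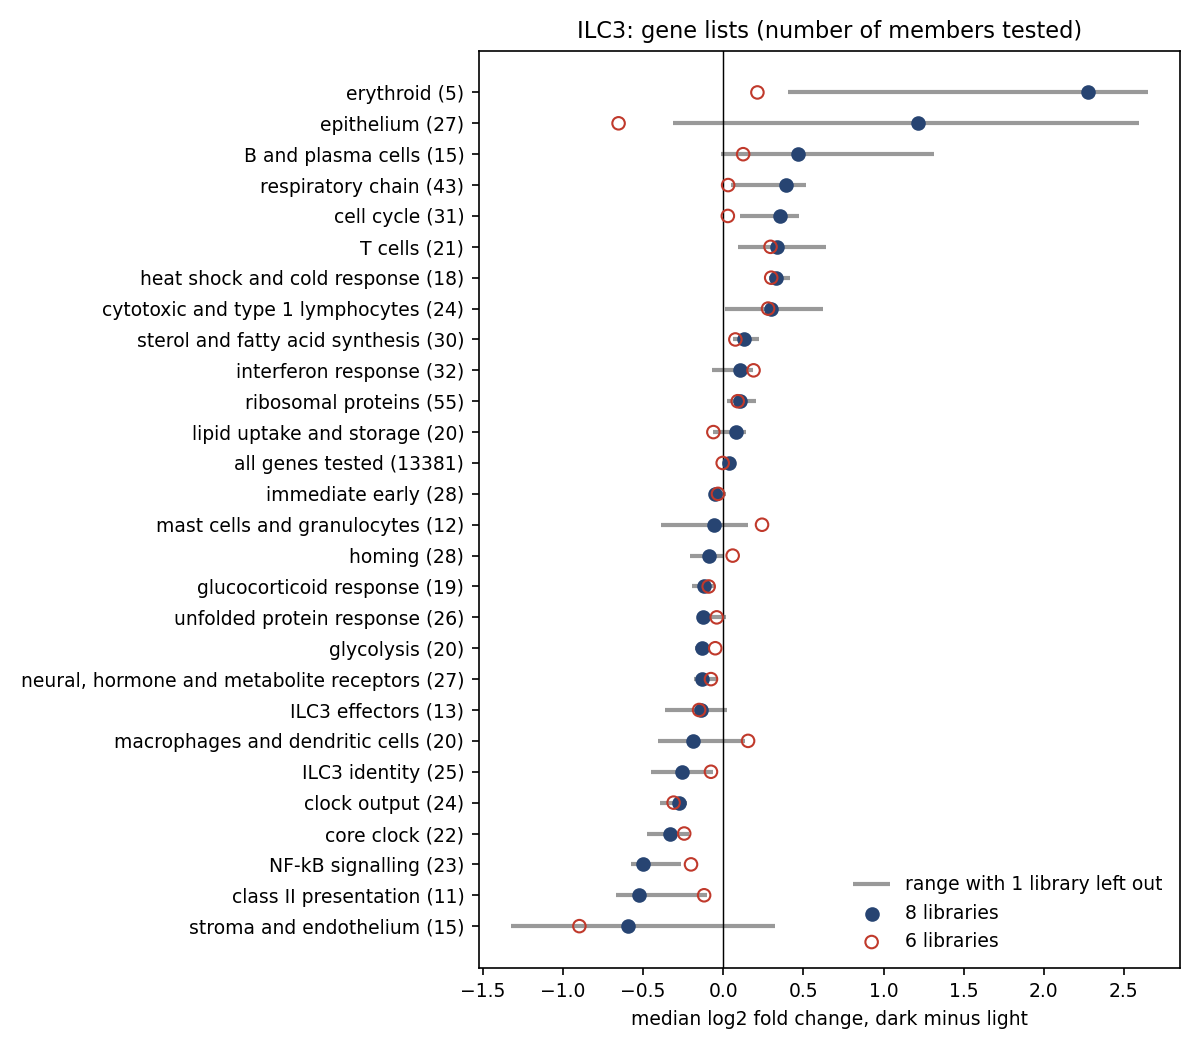
Median log2 fold change, dark minus light, of each gene list and of all genes tested in the 8 ILC3 libraries (filled), in the 6 libraries (open), and its range when 1 library was left out (line). The epithelial median was 1.21 in 8 libraries and -0.65 in 6, whereas heat shock and cold response was 0.33 and 0.30.

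Lists with no member at an unadjusted p under 0.05 were those of class II presentation, T cells, epithelium, stroma and endothelium, interferon response and ribosomal proteins. The T cell median was 0.33 (0.29 in the 6 libraries) and ran from 0.092 to 0.64 when each library was left out. The median of stroma and endothelium was -0.60 (-0.90) and ran from -1.33 to 0.32. In the 6 libraries 6 of its 15 genes were lower at that level, beside 373 of all 13490 genes tested there. The collagen gene Col1a1 was at 99.1 CPM in ZT4 replicate 2, the highest of the light libraries. Its difference was -2.36 in the 8 libraries and 0.069 without that library alone. For the 6 libraries, 3 interferon response genes were higher at that level and 2 epithelial genes lower, beside 286 higher and 373 lower of all 13490 genes. The median of interferon response was 0.11 (0.19) and that of ribosomal proteins 0.10 (0.090). All 11 class II genes were fitted lower, with a median of -0.52, and their summed level was 54019 CPM in ZT4 replicate 1 and 17883 to 28350 CPM in the other 7 libraries. The class II median was -0.12 in the 6 libraries. All 27 epithelial genes were fitted higher with a median of 1.21, but 24 of 27 were fitted lower in the 6 libraries, with a median of -0.65. The 6 libraries still hold ZT4 replicate 2, a light library. Its epithelial sum was 5397 CPM, and the others kept had 1012 to 1684 CPM. The part of that library in the epithelial and stromal values of the 6 libraries was not tested. The erythroid list had 4 of 5 genes higher, with a median of 2.28, and 0 of 5 in the 6 libraries, where it was 0.21. Hbb-bs, a globin chain, was at 4.01 and 14.3 CPM (ZT4), 15.9 and 20.5 CPM (ZT10), 27.7 and 17.3 CPM (ZT16) and 20.8 and 342 CPM (ZT23). ZT23 replicate 2 alone was above 28 CPM, and globin genes are near copies whose reads the counting may split. The mast cell and granulocyte list had 2 of 12 lower (Hdc and Cma1) and 2 higher (Mcpt1 and Mcpt2), among them the histamine enzyme gene Hdc (-1.16 ± 0.37) and the protease gene Mcpt2 (1.00 ± 0.37), which also has near copies. Beside 3.62% lower and 2.04% higher among all genes, the cytotoxic list had 1 of 24 lower (Klrk1, -0.67 ± 0.29) and 1 higher (Ccl4, 0.86 ± 0.35). The B and plasma cell list had 1 of 15 lower (Irf4, -0.86 ± 0.36), the macrophage and dendritic cell list 1 of 20 lower (Clec9a, -1.02 ± 0.40), and the glucocorticoid response list 1 of 19 lower (Cdkn1a) and 1 higher (Ddit4, 0.44 ± 0.16). Klrk1 was at -0.37, Irf4 at -0.41, Clec9a at -0.62 and Ddit4 at 0.26 in the 6 libraries, all above an unadjusted p of 0.05. The part of other cells in the results for immune and metabolic lists was not tested.

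The ILC2 libraries, 3 dark and 4 light, gave values that the rule for both sets of 12 genes had not used. This fit was added after seeing the data, and the gene lists were chosen with earlier results of these data known. In ILC2 0 of 12591 genes passed an adjusted p of 0.05 in edgeR, and at an unadjusted p under 0.05 226 genes (1.79%) were lower and 122 genes (0.969%) higher in the dark. The 12 genes chosen as lower in the dark in ILC3 were all fitted lower in ILC2, beside 49.9% of all genes. Of these, 10 were at an unadjusted p under 0.05. The 2 that were not were Ubald1 (-0.45 ± 0.23) and Taf4b (-0.37 ± 0.26). Without the single ZT16 library 4 of the 12 were at that level, and without ZT10 replicate 1 there were 6, while all 12 were still fitted lower whichever ILC2 library was left out. Dark and light libraries of ILC2 did not overlap for 7 of the 12, beside 2.32% of all genes.

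Wsb1 in ILC2 was at 214 and 106 CPM (ZT4), 148 and 129.9 CPM (ZT10), 70.9 CPM (ZT16) and 71.4 and 72.5 CPM (ZT23). The dark libraries lay below the light ones, and the difference was -1.06 ± 0.23, beside -0.97 ± 0.20 in ILC3. Zswim4 was at 75.6 and 72.2 CPM (ZT4), 64.3 and 60.5 CPM (ZT10), 39.8 CPM (ZT16) and 40.8 and 39.1 CPM (ZT23), with a difference of -0.77 ± 0.17. Mepce was at 107 and 71.98 CPM (ZT4), 109 and 107 CPM (ZT10), 61.6 CPM (ZT16) and 50.8 and 46.4 CPM (ZT23), with -0.90 ± 0.20. Nr1d1 in ILC2 was at 27.2 and 32.4 CPM (ZT4), 34.99 and 25.8 CPM (ZT10), 10.5 CPM (ZT16) and 21.04 and 25.2 CPM (ZT23). Its ZT23 replicate 2 was close to the lowest light library, and the difference was -0.67 ± 0.29, beside -1.21 ± 0.23 in ILC3. Rbm3 in ILC2 was at 457 and 284 CPM (ZT4), 312 and 351 CPM (ZT10), 168 CPM (ZT16) and 179 and 289.7 CPM (ZT23), where ZT23 replicate 2 overlapped with the light libraries, and differed by -0.73 ± 0.24.

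Of the 12 genes chosen as higher in the dark in ILC3, 10 were fitted higher in ILC2, beside 50.1% of all genes. Of the 12, 1 (Cacybp, 0.48 ± 0.19) was at an unadjusted p under 0.05. The ILC2 libraries were apart in the same direction for 1 of the 12, beside 2.22% of all genes. When ZT4 replicate 1, ZT10 replicate 2, ZT16 or ZT23 replicate 2 of ILC2 was left out, none of the 12 was at that level. Zkscan3 and Eno1b were fitted lower there (-0.16 ± 0.28 and -0.21 ± 0.26). Of the 22 clock genes 7 were lower at that level in ILC2 and 0 higher, beside 1.79% and 0.969% of all genes. Nr1d2 (-1.29 ± 0.26) and Dbp (-1.65 ± 0.37) had the smallest p among them, and Dbp was at 29.2 and 26.6 CPM (ZT4), 52.5 and 48.4 CPM (ZT10), 19.1 CPM (ZT16) and 10.7 and 7.60 CPM (ZT23), again highest at ZT10. The labels do not say whether ILC2 and ILC3 of a time came from the same mice, and batch is the same as cell type in this study.

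A difference of phase particular to ILC3 was not shown for any gene. The interaction of cell type and phase passed an adjusted p of 0.05 for 0 of 14221 genes (0%) in edgeR and 0 in DESeq2, and 463 were at an unadjusted p under 0.05 in edgeR. Of the 12 genes lower in the dark, 1 was among these, Taf4b, whose difference in ILC3 minus that in ILC2 was -1.22 ± 0.47 (SE). Of the 12 higher, 2 were, Zkscan3 (0.77 ± 0.34) and Eno1b (0.71 ± 0.29). Both sets of 12 were chosen by their ILC3 values, which the interaction uses again, so the choice itself enlarges their differences from ILC2. Of the 22 clock genes 0 were at an unadjusted p under 0.05 in the interaction. For Nr1d1 the difference between the cell types was -0.58 ± 0.37.

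**Figure D5:**
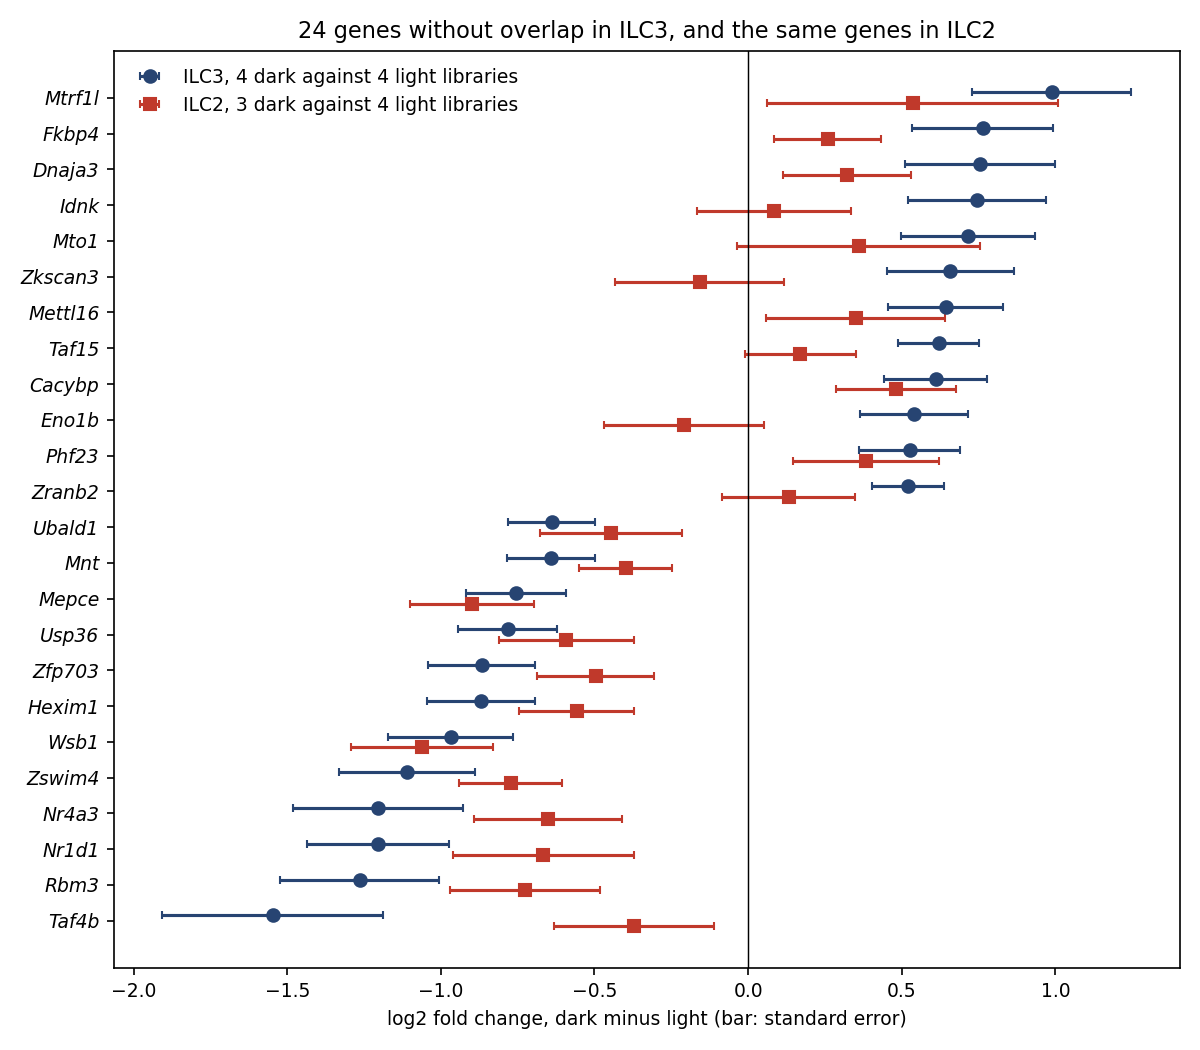
Log2 fold change, dark minus light, with its standard error for the 24 genes chosen by smallest p among those without overlap in ILC3. Blue circles are ILC3 (4 dark against 4 light libraries), and red squares are the same genes in ILC2 (3 against 4). All 12 genes lower in ILC3 are left of 0 in ILC2, and 10 of the 12 higher ones are right of it.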

How the data were processed

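PolyA RNA of ILC3 and ILC2 sorted from mouse small intestine was sequenced, and the deposited files hold raw counts per gene, 1 file a library, as whole numbers under Entrez gene identifiers and not normalized. The submitters' processing notes name featureCounts and mm10. Which aligner, strand setting and sort gates were used is not stated in these sources. Libraries were made with a TruSeq kit from 100 ng of RNA, per the labels' protocols. Of 22797 genes, 22718 were named from the RefSeq table of GRCm38.p6, the same build, and positions are 1-based. ILC3 depth ran from 5903163 to 24794403 counts. The libraries of a time differed by more than sampling noise (chi-square per degree of freedom 28.6 to 178).

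Genes kept by filterByExpr (minimum count 10) were fitted in edgeR 4.0.16 (R 4.3.3) with TMM scaling and 1 term for phase, 6 residual degrees of freedom (median prior 3.36) and a common biological coefficient of variation of 0.429. P-values were adjusted by Benjamini-Hochberg over all genes tested. The interaction was fitted over all 15 libraries in 4 groups of cell type and phase, and ILC2 alone in its 7 libraries, a fit added after seeing the data. Levels are CPM with TMM factors, which do not correct for gene length. DESeq2 1.42.0, limma 3.58.1, other scaling, filters, models of spread, a block for replicate number, and leaving out libraries or times were alternatives. Correlations of replicate differences between times ran from -0.16 to 0.44, the highest for ZT4 with ZT23. They do not settle whether replicate numbers pair the libraries, and the main fit left the replicate number out. On simulated counts of 13176 genes for this comparison, the share called by edgeR was 21% at 2-fold and 59% at 4-fold, and 3 unchanged genes were called. Each gene was drawn independently with 1 mean per phase. The simulation therefore holds no library effects shared between genes, unlike these libraries, and its shares may not carry over.

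Members and the 27 gene lists (653 of 655 entries found) were chosen with earlier results of these data known. Some list members are not reported here and enter no list count. Named genes were every core clock gene, up to 12 genes per direction (called, else the smallest p among genes without overlap, log2 change of 0.5 or more in size, and 10 CPM or more in the higher phase), up to 3 members per list with the smallest p and at least 5 CPM, and ILC3 markers. Other list members (Hspd1, Hspa8, Nr4a2, Klf2, Nfkbib) and the remaining names in counts were chosen after their values were seen. Of the 45 clock and named genes, 35 had an entry in the promoter table.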

Additional observations from a re-analysis of the deposited data

Results flagged for a closer look

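Within each phase, the highest or lowest of the 4 ILC3 libraries was tested against the others by Dixon's ratio (gap over range, at its 95% critical value), for 274 groups of values, of which 34 passed. Chance alone passes about 1 in 20 groups, and the values share libraries.

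ZT23 replicate 2 was the highest dark library for the chaperone-related genes Cacybp (0.858) and Dnaja3 (0.921), for Ddit4 (0.887), for the glycolysis enzyme gene Tpi1 (0.892) and for the nucleotide synthesis gene Tyms (0.945). It was also highest for markers of other cells. These were the B cell gene Cd79a (0.847), the plasma cell gene Jchain (0.898), the collagen genes Col1a1 (0.883), Col1a2 (0.884) and Col3a1 (0.903), the epithelial genes Fabp2 (0.884) and Tff3 (0.848), and the globin genes Hba-a2 (0.934), Hbb-b1 (0.929) and Hbb-bs (0.968). The same library was highest for the summed B and plasma cell (0.917), epithelial (0.953), erythroid (0.938) and respiratory chain lists (0.877). It was the lowest dark library for the clock kinase gene Csnk1d (0.832).

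Among light libraries, ZT4 replicate 2 was highest for Cd79a (0.881), Col1a1 (0.878), Col1a2 (0.892), Col3a1 (0.882), Tff3 (0.835), the receptor gene Ncr1 (0.883) and the summed epithelial list (0.837). ZT4 replicate 1 was highest for the receptor gene Gpr65 (0.875) and the summed class II list (0.830) and lowest for the desaturase gene Scd2 (0.865). ZT10 replicate 2 was highest for Cox7c (0.873).

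Among dark libraries, ZT16 replicate 1 was highest for Nr1d2 (0.845) and for the costimulatory receptor gene Icos (0.948), and ZT16 replicate 2 was highest for Irf4 (0.862).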

How the results depend on the processing

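All 68 named genes with an unadjusted p under 0.05 kept their sign in all 1428 values under the alternatives, and none passed an adjusted p of 0.05 in edgeR or limma in any of them. The 68 were picked by their p in the same libraries that the alternatives fit again, so the kept signs follow largely from the choice. DESeq2 called 25 genes where edgeR called 0. The genes lower in the dark at an unadjusted p under 0.05, 484 in all, were 223 without the ZT4 libraries and 274 without the ZT23 libraries, and 230 to 632 with 1 library left out, with 230 without ZT4 replicate 1, 311 without ZT10 replicate 1 and 290 without ZT23 replicate 1. Those higher, 273 in all, were 172 with 8 means over all 15 libraries, 636 without ZT16, 177 without ZT23 and 105 to 574 with 1 library left out, with 150 and 574 without ZT4 replicates 1 and 2 and 105 and 440 without ZT10 replicates 1 and 2. Clock genes lower at that level, 5 in all, were 2 without ZT10, 8 without ZT16, 2 without ZT23 and 2 to 8 with 1 library left out, with 2 without ZT10 replicate 1, 3 without ZT16 replicate 2, and 8 without ZT4 replicate 2 or ZT16 replicate 1. With library size as the only scaling 386 genes were lower and 335 higher. The block for replicate number gave 0 called, 512 lower, 345 higher and 7 clock genes, and for the interaction 0 called and 424 at an unadjusted p under 0.05, where leaving out 1 library gave 327 to 641. The interaction gave 0 called in every alternative run. Of the 12 genes lower in ILC3, 4 to 9 were lower in ILC2 at that level with 1 ILC2 library left out, and all 12 were fitted lower; of the 12 higher, 0 to 1 and 9 to 11. The causes were not tested.

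Signs turned in 46 of 2641 values, all of genes at an unadjusted p above 0.05. With 1 library left out the log2 fold changes ran from -0.17 to 0.23 for Per2, -0.21 to 0.13 for Btrc, -0.080 to 0.071 for Csnk1d, -0.27 to 0.053 for Ccr6, -0.069 to 0.18 for Id2, -0.31 to 0.014 for Kit, -0.63 to 0.25 for Ncr1, -4.60 to 0.069 for Col1a1, -4.40 to 0.40 for Col1a2 and -0.00089 to 2.62 for Fabp2. Without the ZT4 libraries Btrc was 0.13, Ncr1 0.30 and Per2 -0.19. Without ZT10, Ccr6 was 0.19, Csnk1d 0.0085, Hlf 0.037, Per3 0.43 and Tef 0.48. Without ZT16, Id2 was -0.016 and Per2 -0.48. Without ZT23, Apoa1 was -0.23, Btrc 0.080, Ccr6 0.052, Ciart 0.15, Csnk1d 0.082, Fabp2 -0.65, Fbxl21 0.15, Ncr1 0.30 and Per3 0.23. In the 6 libraries Btrc was 0.17, Ccr6 0.076, Ciart 0.0082, Csnk1d 0.066, Fabp2 -0.37 and Kit 0.040. Csnk1d was 0.020 with library size as the only scaling, and Per2 was -0.022 with 4 means of time and -0.054 with 8 means. Each range is over the 8 ILC3 libraries, and the depth of ZT4 replicate 1 limits the genes near 5 CPM.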
